A study of Arabidopsis thaliana with 6 samples.

Results

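The cytochrome P450 genes described here are 24 of the 22810 probe sets on an Affymetrix whole-genome array of Arabidopsis thaliana. They are the probe sets with 1 gene in the platform annotation whose symbol is CYP followed by a family number from 51 upward. The same symbol pattern also took CYP59 and CYP71, which RefSeq names as cyclophilins, so these 2 were left out. The 24 probe sets stand for 24 genes, of which 19 belong to the subfamily CYP71B and 5 to other families, namely CYP51G2, CYP718, CYP78A9, CYP79A2 and CYP84A4. The RefSeq gene table holds 237 P450 symbols, so most of the family was not analysed here, and what follows is largely an account of CYP71B.

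Leaves of 28-day-old Col-0 plants, grown in sterile jars on MS medium with sucrose, were sprayed with 1.6 mM Tween 20 (0.2%), a non-ionic detergent, or with distilled water. Collection followed at 1 h in 2 biological repetitions, named IA and IB, and at 2.5 h in a further experiment, named II. In each of the 3 there was 1 array for Tween 20 and 1 for water, each hybridised with a pool of RNA from 3 extracts. The 1 h comparison therefore rests on 2 pairs of arrays and the 2.5 h comparison on 1 pair. The p-values rest on the spread between these few pairs, moderated by a spread shared over all probe sets in the fit. The single 2.5 h pair has no spread of its own. The treatment text of the labels names water for the Tween samples too and 2.5 h for experiment IA, so groups were taken from the titles.

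P450 enzymes are haem-containing monooxygenases, most of them anchored in the endoplasmic reticulum, which receive electrons from NADPH-cytochrome P450 reductases and usually insert an oxygen atom into a small lipophilic molecule. In plants they work in the synthesis and breakdown of hormones, in phenylpropanoid, glucosinolate, terpene and cuticle pathways, and in the metabolism of foreign compounds. Their names give the family as a number, the subfamily as a letter and then the gene. CYP71B is a large subfamily of the CYP71 clan whose genes often stand side by side on a chromosome, and the substrates of most of its members are little known. Among the members with a known role, CYP71B6 acts on indole-3-acetonitrile in indolic metabolism, CYP79A2 makes phenylacetaldoxime for benzyl glucosinolate, CYP84A4 takes part in the synthesis of arabidopyrones, CYP71B31 oxidises linalool and CYP78A9 affects the growth of fruits and seeds.

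The members were divided into a bright and a dim group by a border set on the signal. The 40th percentile of the signals of an array, used here as the border between dim and bright, lay between 20.6 and 23.9 units, and the median signal between 36.5 and 40.5 units. On all 6 arrays 11 members were bright, and CYP71B22 was bright on 5, so that 12 members were tested. By the same rule 7739 of all 13513 probe sets with 1 gene were tested. The other 12 were dim on every array. Of the 19 CYP71B genes 11 were tested, and of the 5 genes of other families only CYP78A9 was. CYP84A4 lay closest below the border, at 21.1, 13.6 and 20.4 units with Tween 20 in IA, IB and II, against 17.9, 18.1 and 19.0 units with water. CYP71B22 lay closest above it, at 28.9, 31.6 and 29.2 units with Tween 20 and 21.9, 47.3 and 30.2 units with water. Signals of different probe sets also depend on how well their probes bind, so they order the members as bright or dim on the array and not by amount of RNA.

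**Figure D1:**
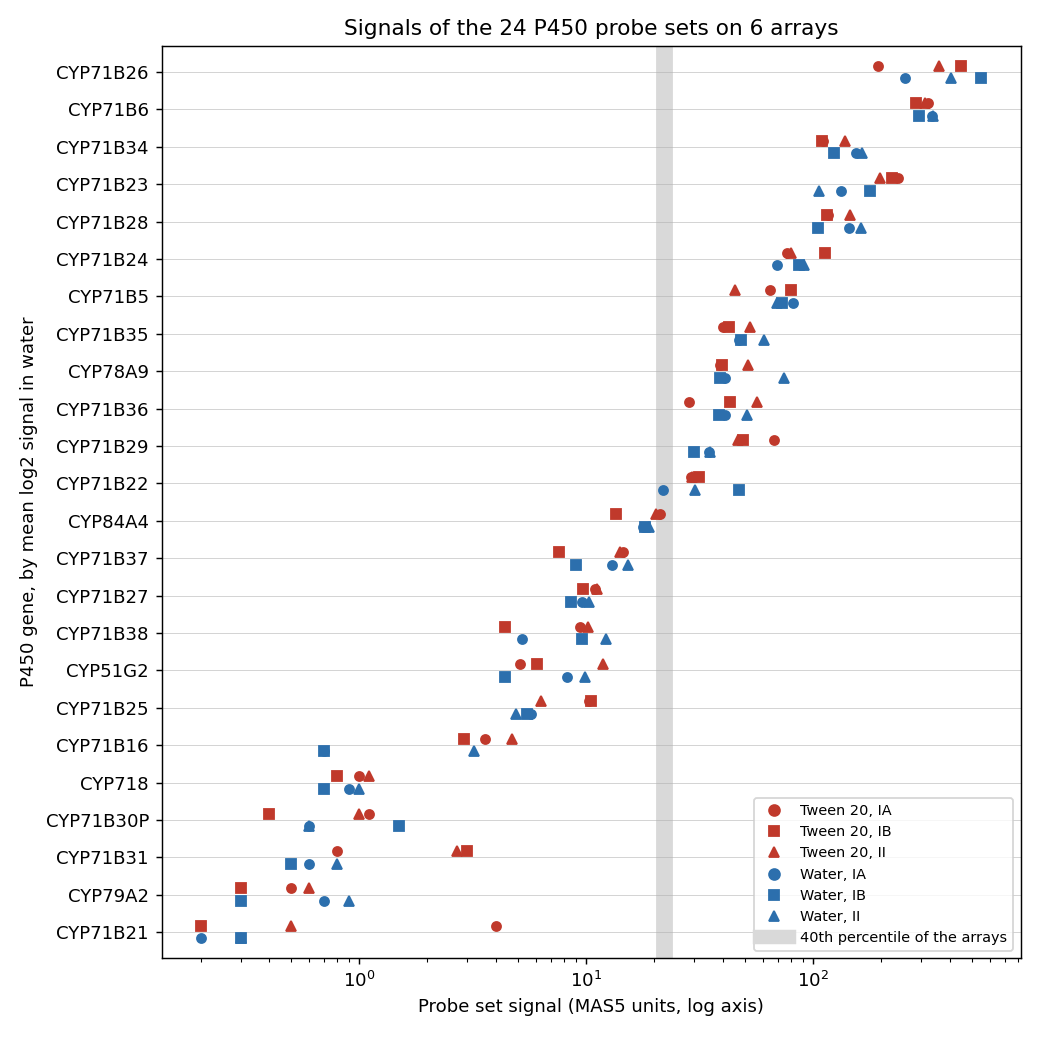
Signal of each of the 24 P450 probe sets (log axis, MAS5 units) on the 3 Tween arrays (red) and the 3 water arrays (blue), with genes ordered by their mean log2 signal in water. CYP71B26 and CYP71B6 are the brightest, 12 genes lie left of the grey band of 40th percentiles on every array or within it, and the sprays overlap for most genes.

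None of the tested P450 genes changed past the threshold after Tween 20, and the 2 that stood furthest above water were CYP71B23 and CYP71B29. Over the 3 experiments, with the experiment as a block, limma's moderated test with Benjamini-Hochberg adjustment over 14345 probe sets passed 0 of 12 members at 0.05. Over all tested probe sets, 1.02% passed as higher with Tween 20 and 0.105% as lower. At an unadjusted p under 0.05, 2 members were higher (CYP71B23 and CYP71B29, against 8.17% of all tested probe sets) and 2 were lower (CYP71B26 and CYP71B34, against 7.53%). Whole-leaf RNA cannot separate a change in the number of cells of a type from a change in RNA per cell.

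CYP71B23 had signals of 238.0, 224.0 and 197.5 units with Tween 20 in IA, IB and II, against 133.5, 177.6 and 106.3 units with water. Every Tween array was above every water array, and the gap was smallest in IB. The log2 folds of Tween 20 over water were 0.83, 0.33 and 0.89, and the estimate over the 3 experiments was 0.69 ± 0.14 (SE), which is 1.61-fold (95% interval 0.35 to 1.02 on the log2 scale, adjusted p = 0.0856, higher in 3 of 3 pairs). Without IB the estimate was 0.86 and the adjusted p in limma was 0.00806, so the call depended on that experiment. In that fit 730 of all 14345 tested probe sets passed, against 161 with all 3 experiments, so the gain was not particular to CYP71B23. Without IA or II the adjusted p was 0.344 or 0.317.

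CYP71B29 had signals of 67.2, 49.2 and 46.8 units with Tween 20, against 34.8, 29.8 and 35.2 units with water. Again the sprays did not overlap, and the Tween signal was highest in IA. The log2 folds were 0.95, 0.72 and 0.41, with an estimate of 0.69 ± 0.15 (SE) or 1.62-fold (95% interval 0.33 to 1.06, adjusted p = 0.1 in limma, higher in 3 of 3 pairs). Every Tween signal above every water signal was found in 4.56% of all tested probe sets, and among the 12 members in these 2. The reverse was found in 0 members and in 3.31% of all.

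**Figure D2:**
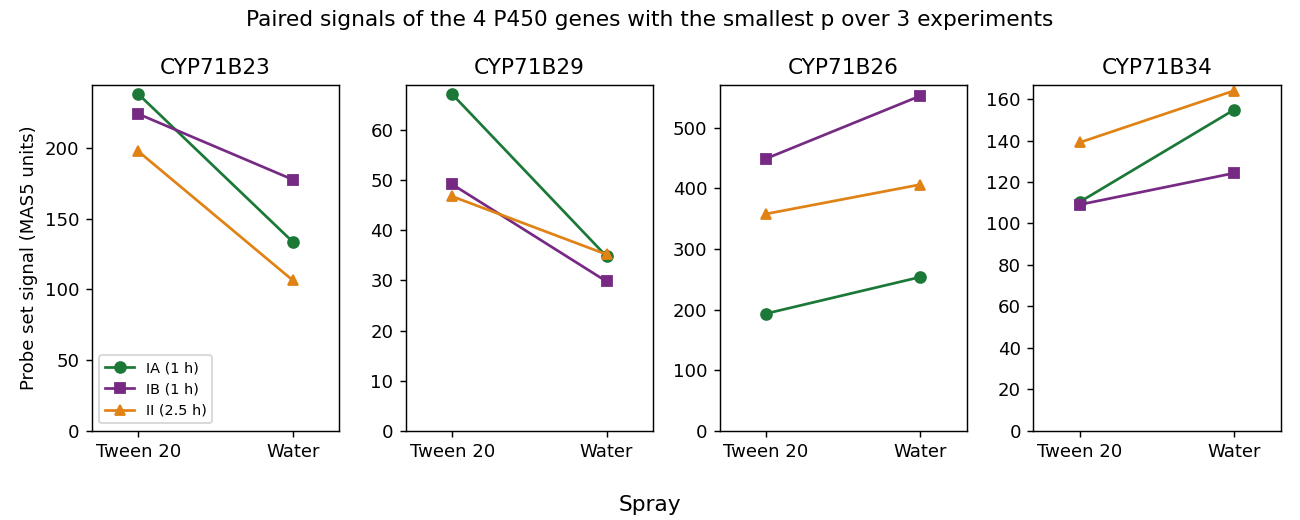
Signals (MAS5 units, linear axis from 0) of the 4 P450 genes with the smallest unadjusted p over 3 experiments, with Tween 20 on the left and water on the right and a line for each experiment. CYP71B23 and CYP71B29 are higher with Tween 20 in all 3 experiments and CYP71B26 and CYP71B34 lower in all 3, but none passed the test after adjustment.

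On the lower side the differences were smaller. CYP71B34 had 110.4, 109.1 and 139.1 units with Tween 20, against 154.9, 124.3 and 164.1 units with water. Each Tween array was below the water array of its own experiment, while the sprays overlapped between experiments. The log2 folds were -0.49, -0.19 and -0.24 and the estimate was -0.31 ± 0.12 (SE, adjusted p = 0.292 in limma). CYP71B26 had 193.3, 449.2 and 357.9 units with Tween 20, against 253.7, 552.9 and 406.4 units with water. Both arrays of IA were low and both arrays of IB were high, and its water signals differed 2.18-fold between experiments, more than the sprays did within any of them. Its log2 folds were -0.39, -0.30 and -0.18, with an estimate of -0.29 ± 0.10 (SE, adjusted p = 0.249 in limma).

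CYP71B35, annotated next to CYP71B34, had the narrowest spread of folds among the 12, followed by CYP71B6. It stood at 40.2, 42.6 and 52.6 units with Tween 20, against 47.3, 48.3 and 60.7 units with water, with log2 folds of -0.23, -0.18 and -0.21 (-0.21 ± 0.03, SD, n = 3). The indolic enzyme CYP71B6 had 321.4, 283.4 and 310.8 units with Tween 20, against 335.4, 292.3 and 339.0 units with water, and its mean log2 fold was -0.08 ± 0.04 (SD, n = 3). Both were lower with Tween 20 in 3 of 3 pairs by small amounts, with adjusted p-values of 0.470 and 0.769 in limma's test. In all, 4 of the 12 members were below water in all 3 pairs, against 23.6% of all tested probe sets, and 2 of 12 were above water in all 3, against 15.2%.

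The other 6 tested members had folds of both signs. CYP71B28 was at log2 folds of -0.31, 0.13 and -0.16, CYP71B24 at 0.15, 0.39 and -0.19, and CYP71B36 at -0.53, 0.17 and 0.15. CYP71B5 was at -0.33, 0.12 and -0.62, and CYP71B22 at 0.40, -0.58 and -0.05. The Tween signal of CYP71B5 was lowest in II, at 45.3 units against 69.5 units with water, while the 3 Tween signals of CYP71B22 lay close together and its water signals spread 2.16-fold. CYP78A9, the fruit and seed gene, had 39.0, 39.6 and 51.5 units with Tween 20, against 40.8, 39.1 and 74.3 units with water. Its sprays were close in IA and IB, and its 2.5 h log2 fold of -0.53 lay beside a water signal in II that was higher than both others.

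**Figure D3:**
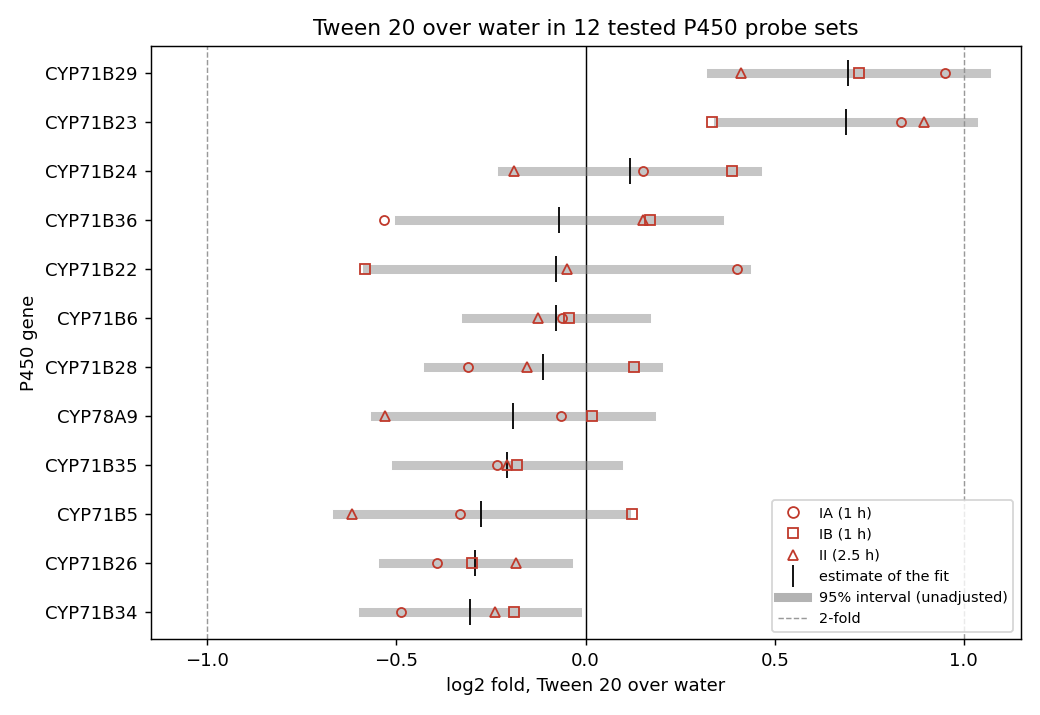
Log2 fold of Tween 20 over water for the 12 tested P450 genes in IA, IB and II (open symbols), with the estimate over the 3 experiments (black tick) and its unadjusted 95% interval (grey bar, limma). The intervals of CYP71B29 and CYP71B23 reach past the dashed 2-fold line, and those of the other 10 genes lie inside it.

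The intervals show what size of change the arrays leave room for. With both times pooled, the 95% interval lay within a 2-fold change in either direction for 10 of the 12 tested members. Together these intervals spanned -0.66 to 0.45 on the log2 scale. The share of all tested probe sets with an interval within 2-fold was not computed. At 1 h alone the intervals of CYP71B29 (0.39 to 1.28) and CYP71B23 (0.13 to 1.03) reached past 2-fold. At 2.5 h alone, the intervals of CYP71B5 (-1.26 to 0.02), CYP78A9 (-1.13 to 0.075) and CYP71B22 (-1.06 to 0.97) reached past 2-fold. Those of CYP71B23 and CYP71B29 did so there as well. The study's criterion of a 2-fold difference, with a filter added here that the higher signal of the pair be bright, was met by 0 of the 24 members at 1 h in both repetitions, and by 0.479% of all probe sets as higher and 0.0835% as lower. It was met by 0 members at 2.5 h, against 0.725% and 0.163%, and by 0 in all 3 pairs, against 0.127% and 0.00879%. Without that filter the dim CYP71B16 met it at 1 h and the dim CYP71B31 at 2.5 h. In 6 of the 12 tested members the water arrays alone differed between experiments by more than the largest difference between sprays in any pair. The share of all tested probe sets with this pattern was not computed. The median ratio of the highest to the lowest water signal was 1.33 for the 12 members and 1.43 for all tested probe sets.

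The members had folds in both directions. Over the 3 experiments, 9 of the 12 estimates were below 0 and 3 above. The share of all tested probe sets with an estimate below 0 was not computed, so this count is a description only. The median log2 fold of the 12 members in IA, IB and II was -0.15, 0.07 and -0.17, against -0.08, -0.03 and -0.02 for all tested probe sets. Below water were 8 members in IA, 5 in IB and 9 in II, against 59.9%, 54.1% and 52.1% of all tested probe sets. Across the 12 members, which share the same arrays, the folds of IA and II correlated at r = 0.69 (rho = 0.47), those of IA and IB at 0.46 (rho = 0.36) and those of IB and II at 0.43 (rho = 0.36). Over all 14345 tested probe sets the same correlations were r = 0.513, 0.33 and 0.203, in the same order of size.

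The study set out to tell early from lasting responses, and the times were compared by the difference between the effect at 2.5 h and that at 1 h. CYP71B23 had a mean log2 fold of 0.58 ± 0.35 (SD, n = 2) at 1 h and a log2 fold of 0.89 at 2.5 h, a difference of 0.31 ± 0.32 (SE). CYP71B29 was at 0.84 ± 0.16 (SD, n = 2) at 1 h and at 0.41 at 2.5 h, a difference of -0.43 ± 0.32 (SE). Both differences were about as large as their error. The highest difference belonged to CYP71B36 (0.33 ± 0.40, SE), and the lowest to CYP71B5 (-0.51 ± 0.32) and CYP78A9 (-0.51 ± 0.30). limma's interaction test passed 0 of 12 members after adjustment (smallest adjusted p = 0.998) and 0 of 12 at an unadjusted p under 0.05, where 0 of 14345 probe sets passed after adjustment and 1.19% were higher and 1.3% lower before it. The separate tests at 1 h and at 2.5 h also passed 0 of 12 members, with smallest adjusted p-values of 0.174 for CYP71B29 and 0.998, and 0 of all 14345 probe sets. Before adjustment CYP71B29 and CYP71B23 were under 0.05 at 1 h and were higher with Tween 20, as were 6.49% of all tested probe sets, and CYP71B23 was at 2.5 h, as were 2.63%. No member was under 0.05 as lower at 1 h or at 2.5 h, where 5.3% and 1.46% of all tested probe sets were. Time cannot be told apart from experiment II.

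The folds of neighbouring CYP71B genes were close in some pairs of genes and apart in others. In the RefSeq gene order of chromosome 3, the stretch from CYP71B16 to CYP71B37 holds 24 annotated genes with 18 P450 symbols, of which 11 are members and 7 were tested. CYP71B23 is the next annotated gene after CYP71B22, and its log2 fold exceeded that of CYP71B22 by 0.43, 0.92 and 0.94 in IA, IB and II. On the other side of CYP71B23, with 1 annotated gene between them, stands CYP71B24, and the same difference there was 0.68, -0.05 and 1.08. CYP71B34 and CYP71B35, also adjacent, differed by -0.25, -0.01 and -0.03. On chromosome 1, CYP71B29 follows CYP71B28 directly, and its log2 fold was higher by 1.26, 0.59 and 0.57. These differences between neighbours were not tested, and related genes may share some hybridisation, which the deposited signals do not resolve.

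**Figure D4:**
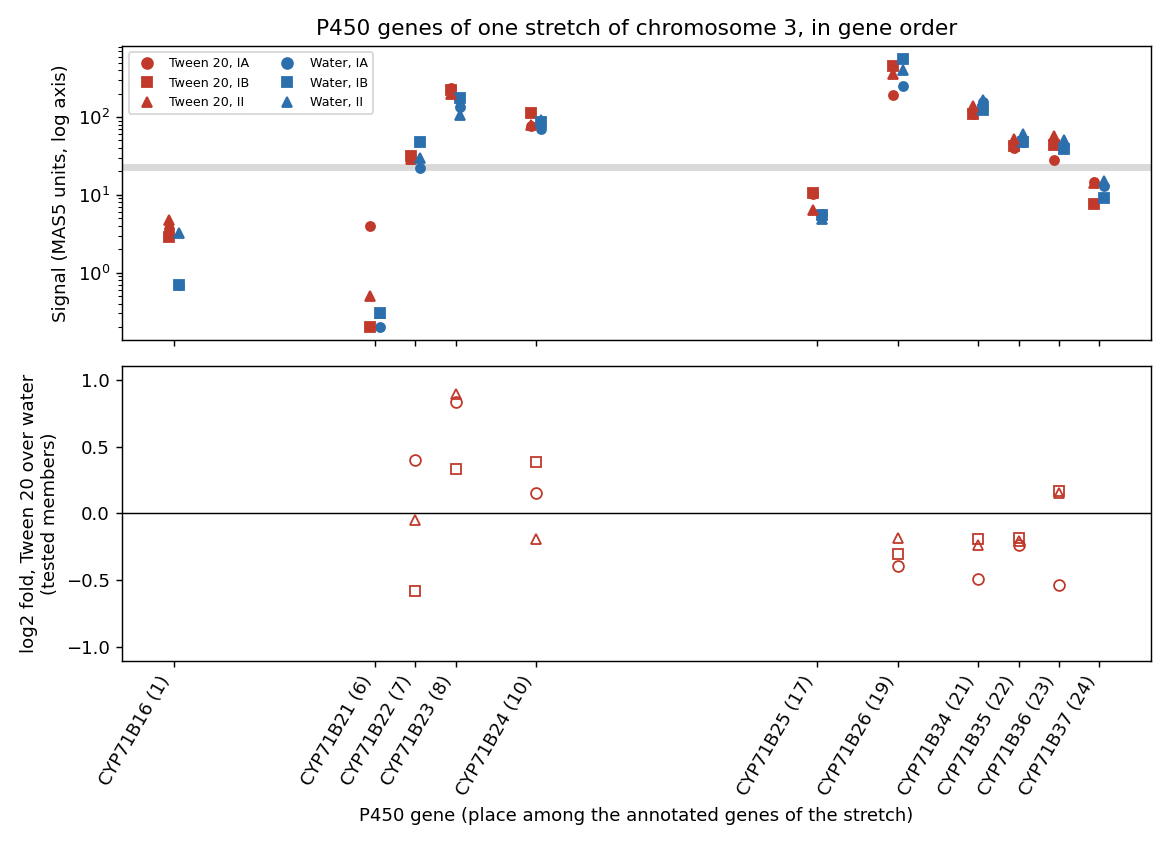
The 11 P450 members of the chromosome 3 stretch in gene order, with the place among its 24 annotated genes in brackets. The upper panel gives the signals (log axis, MAS5 units, Tween 20 in red and left of water in blue, grey band for the 40th percentiles), and the lower panel the log2 folds of the 7 tested members, among which only CYP71B23 is above 0 in all 3 pairs.

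By the root mean square difference of the 3 log2 folds, the tested members most like CYP71B23 were CYP71B29 (0.364), CYP71B24 (0.740) and CYP71B22 (0.799). CYP71B29 lies on another chromosome than CYP71B23, and the other 2 are its neighbours on chromosome 3. CYP71B6, on chromosome 2, came next at 0.813, close to CYP71B22, so these values do not set the neighbours apart.

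The 12 dim members had signals between 0.2 and 21.1 units, and their folds are the least certain. CYP71B25, inside the chromosome 3 stretch, had 10.3, 10.5 and 6.3 units with Tween 20, against 5.7, 5.5 and 4.9 units with water, so that the sprays did not overlap. CYP71B16 had 3.6, 2.9 and 4.7 units with Tween 20, against 0.7, 0.7 and 3.2 units with water, and CYP71B31, the linalool oxidase, 0.8, 3.0 and 2.7 units, against 0.6, 0.5 and 0.8 units. All 3 genes were far below the border to bright signals. They are among 5 dim members that were higher with Tween 20 in 3 of 3 pairs, the others being CYP71B27 (log2 folds of 0.18, 0.17 and 0.12) and CYP718 (0.15, 0.19 and 0.14). The share of all dim probe sets that were higher in 3 of 3 pairs, or whose sprays did not overlap, was not computed. Both patterns are therefore a description only and not a result about these genes. CYP71B27, a transcribed pseudogene in the RefSeq annotation, lay between 9.7 and 11.2 units with Tween 20, against 8.6 to 10.3 units with water. The pseudogene CYP51G2, a relative of the sterol demethylase gene CYP51G1, lay between 5.1 and 11.9 units, against 4.4 to 9.9 units. CYP71B37 was between 7.6 and 14.5 units with Tween 20, against 9.0 to 15.3 units with water, and CYP71B38 between 4.4 and 10.2 units, against 5.2 to 12.3 units. CYP718, CYP79A2, CYP71B21 and CYP71B30P stayed at or below 4.0 units on every array. The symbol of CYP71B30P marks it as a pseudogene, while the RefSeq annotation lists it as protein-coding. Whether these genes are silent in the leaf cannot be read from signals, since detection calls were not used here.

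Partners of P450 enzymes were named for few entries. Of 77 partner genes listed from the same pathways and from electron transfer to P450 enzymes, 7 had a probe set with 1 gene, all 7 were tested and 0 passed at 1 h, at 2.5 h, in their difference or over the 3 experiments, and none of the 12 electron transfer and haem genes was among them. Over the 3 experiments 3 of the 7 had estimates above 0 and 4 below, with a median of -0.10. The smallest unadjusted p belonged to LYC, the lycopene cyclase gene of carotenoid synthesis, with 385.1, 330.5 and 517.1 units with Tween 20, against 537.9, 370.9 and 588.3 units with water (-0.28 ± 0.11, SE, adjusted p = 0.293 in limma). OPCL1, which activates a jasmonate precursor, had log2 folds of 1.12, -0.64 and 0.58, and WSD1, a wax ester synthase, -0.80, 1.01 and 0.01, so both were higher in some pairs and equal or lower in others. HCT, of lignin precursor synthesis, was at -0.34, -0.11 and 0.01, and BCAT4, of methionine-derived glucosinolates, at 0.02, -0.14 and -0.18. DFR of anthocyanin synthesis (-0.13 ± 0.19, SE) and UGT74B1 of glucosinolate synthesis (0.01 ± 0.10) had estimates smaller than their errors.

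Of 28 marker genes listed for leaf mesophyll and other tissues, only RCA had a probe set with 1 gene and agreeing code and symbol. RCA is the Rubisco activase gene of green leaf cells. It was bright throughout, at 3823.3, 3955.5 and 3651.7 units with Tween 20, against 3601.3, 4176.4 and 3844.3 units with water. Markers of root, flower, epidermis and vascular tissue were not analysed here, so a share of other cell types in the P450 signals was not tested.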

How the data were processed

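The authors deposited 1 intensity per probe set and array, on a linear scale. Per the submitters' processing notes these came from MAS5, for which version and settings were not given in the sources used here. Arrays appear scaled to 1 target, with trimmed means between 99.2 and 99.995 units, which would hide a shift shared by most transcripts. No 2 arrays were identical (0 identical pairs). Names came from the GEO platform annotation (13513 probe sets with 1 gene, 503 with several, 2 of these with a P450 symbol and not used). All 24 members matched the RefSeq table of TAIR10.1, used for names and gene order only.

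Signals below 0.1 were set to 0.1 before log2. A probe set was tested if it reached the 40th percentile of its array on at least 2 of 6 arrays, and 64 controls were left out. The tests used limma 3.58.1 in R 4.3.3 (eBayes with intensity trend, Benjamini-Hochberg at 0.05) over all 14345 tested probe sets. A run on simulated data with known changes required only a small mean bias of the estimates. It shuffled the spread over probe sets, so it did not test the intensity trend, and its error rates are not given here. The fit over 3 experiments left 2 residual degrees of freedom and the other fits 1, and the 2.5 h pair borrowed the spread of the 1 h pairs. The titles and the series' design text give the pairing, and deviations from the mean of each spray correlated at 0.576, 0.714 and 0.711 within IA, IB and II, against -0.502 to -0.033 between experiments, which this centring favours. The number of arrays limits the precision.

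All tested members are named. The rule took every member past a fit or the 2-fold criterion, the 10 highest and 10 lowest statistics over 3 experiments, and the 5 highest and 5 lowest of the time difference, and dim members are given as a description. Members and lists were chosen with earlier results of these data known. Of 99 P450 entries in the role lists, 4 had a probe set with 1 gene (CYP71B6, CYP78A9, CYP79A2 and CYP84A4). 1 marker entry whose code and symbol disagreed was left out. Other normalizations, a pseudocount, other filters, no variance trend, no block, leaving out experiments and a 1.5-fold criterion were tried.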

Additional observations from a re-analysis of the deposited data

How the results depend on the processing

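Over the 3 experiments the number of P450 genes past the threshold was 0 under quantile normalization, median centring, log2 of signal plus 16, no filter, the filter at the 60th percentile (7 members tested), no variance trend and no replicate block. Over all probe sets 146 passed with quantile normalization, 92 with median centring, 165 with the pseudocount and 159 with the filter at the 60th percentile. With no variance trend 2 passed in all, and with no filter 0. With no replicate block, which makes the test unpaired, the count over all probe sets was 0 as well, against 161 in the paired test. Where 0 or 2 probe sets passed in all, 0 members says little about the P450 genes. Leaving out an experiment gave between 0 and 1 members, the 1 being CYP71B23 without IB (0.86, adjusted p = 0.00806 in limma), where 730 probe sets passed in all. The tests at 1 h, at 2.5 h and of their difference passed 0 members under each alternative run. At 1 h and for the difference, leaving out an experiment leaves no residual degree of freedom, so only medians were computed. The 1 h median log2 fold of -0.09 was between -0.15 and 0.071 without an experiment. With no filter on dim signals 1 gene was 2-fold higher at 1 h (CYP71B16) and 1 at 2.5 h (CYP71B31), both dim, of 652 and 2361 probe sets in all. With a 1.5-fold criterion 1 passed at 1 h (CYP71B29), of 500 in all, and 2 at 2.5 h (CYP71B23 higher, CYP71B5 lower), of 1015 in all. The median log2 fold was 0.15 in IA and 0.027 in II with no filter, which adds the 12 dim genes, and -0.31 in IA with the filter at the 60th percentile, which leaves 7. Members bright on all 3 water arrays numbered 7 at the 60th percentile, an alternative chosen after seeing the data, against 11 at the 40th. Of the single-gene estimates, 321 of 328 kept sign and side of the threshold. The filters, the variance trend and the block leave an estimate as it is, so its sign could not change there. Leaving out II repeats the 1 h fit. The count therefore overstates how much was tried. Leaving out an experiment gave CYP71B22 between -0.32 and 0.18 (above 0 without IB), CYP71B24 between -0.019 and 0.27 (below 0 without IB) and CYP71B36 between -0.19 and 0.16 (above 0 without IA). The time difference of CYP71B35 was -0.0082 with a pseudocount, -0.034 with median centring and -0.0331 with quantile normalization. The estimates of these 4 genes as reported were smaller than their standard errors. The cause of these moves was not tested. Dim signals limit 12 of the 24 members.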
